A study of Mus musculus with 24 samples.

Results

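The genes examined here are 10 mouse genes that call neutrophils into inflamed tissue or carry the interleukin-1 (IL-1) signal. They are the chemokines Cxcl1, Cxcl2, Cxcl3 and Cxcl5, their receptor Cxcr2, the calprotectin subunits S100a8 and S100a9, the IL-1 agonists Il1a and Il1b, and the receptor antagonist Il1rn. They were chosen by symbol, and all 10 were found once in each table among 24346 symbols. All 10 also passed the filter on low values, which kept the 13799 genes that reached 1 FPKM in 4 libraries or more. FPKM counts fragments per kilobase of transcript relative to a library's mapped fragments, so levels of different genes can be set against each other.

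The data are 24 RNA-seq libraries of mouse colorectal tissue labelled as tumor or normal. All the samples carry the AOM/DSS treatment label: azoxymethane, a colon carcinogen, with dextran sulfate sodium, a polymer that injures the colon lining. The genotype label was c-MAF_KO or WT. The titles divide the samples into WT-young, WT-old, KO-1-hetero, KO-8-homo and KO-8-hetero, with 4, 1, 3, 3 and 3 tumors in that order and 2 normal libraries each. This gave 9 KO-labelled and 5 WT-labelled tumors, and 6 KO-labelled and 4 WT-labelled normal libraries. The titles pair "hetero" and "homo" with a leading 1 or 8 that they do not explain. The labels name neither the allele, nor a promoter or cell type that drives a deletion, nor an age in weeks, nor which samples share an animal, so p-values measure the spread between these samples only.

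Neutrophils leave the blood along gradients of ELR-motif CXC chemokines, which they sense through Cxcr2. Epithelium, stroma and macrophages of an injured colon make these chemokines, and IL-1 acting through NF-kB is a classic inducer of them. S100a8 and S100a9 form calprotectin, the most abundant cytosolic protein of neutrophils and a clinical stool marker of gut inflammation. Il1a and Il1b activate the same receptor, Il1r1, and Il1rn occupies that receptor without signalling. Squamous epithelium can also make S100a8, S100a9, Il1a and Il1rn.

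The 4 chemokine genes lie together on chromosome 5 of mm10 (GRCm38): Cxcl5 at chr5:90759360-90761624, Cxcl3 at chr5:90786103-90789600, Cxcl1 at chr5:90891241-90893115 and Cxcl2 at chr5:90903871-90905938, all on the forward strand. Cxcl1, Cxcl2 and Cxcl3 are close paralogs, and how the authors' quantification shared out fragments that fit more than one of them is not given in the sources used here. Il1a (chr2:129299610-129309972) and Il1b (chr2:129364570-129371139) are neighbours on the reverse strand of chromosome 2, and Il1rn lies apart from them at chr2:24336853-24351494. S100a8 (chr3:90668978-90670035, forward strand) and S100a9 (chr3:90692632-90695721, reverse strand) are neighbours on chromosome 3, and Cxcr2 is at chr1:74153989-74161246.

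The promoters of Cxcl1, Cxcl2 and Cxcl3 are shown because these genes rose together in tumors and share 2 short motifs. Each line is the 100 bases before the RefSeq transcript start (GRCm38.p6, forward strand, chr5:90891145-90891244 for Cxcl1, chr5:90903799-90903898 for Cxcl2 and chr5:90786001-90786100 for Cxcl3), 5′ to 3′, with the motifs GGGAATTTCCC and ATAAAAG in capitals.
Cxcl1: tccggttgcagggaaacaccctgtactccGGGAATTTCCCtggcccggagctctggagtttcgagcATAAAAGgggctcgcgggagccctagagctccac
Cxcl2: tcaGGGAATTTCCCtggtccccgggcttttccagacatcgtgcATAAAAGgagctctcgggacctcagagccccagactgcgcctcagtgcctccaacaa
Cxcl3: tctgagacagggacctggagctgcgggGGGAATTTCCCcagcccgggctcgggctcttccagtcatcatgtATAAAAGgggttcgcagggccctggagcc

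GGGAATTTCCC was taken as the longest run of letters common to all 3 stretches, so its presence in them is how it was chosen. It is of the kind bound by NF-kB, and ATAAAAG is a TATA-box type sequence that does not overlap it. It begins 71, 97 and 73 bases before the RefSeq starts of Cxcl1, Cxcl2 and Cxcl3. The gene coordinates given above are from GENCODE, whose starts differ: from those the run begins 67, 69 and 75 bases upstream, and 28 of the bases shown for Cxcl2 and 4 of those for Cxcl1 lie inside the GENCODE gene. Both motifs were searched on both strands in 32851 RefSeq promoter windows, each the 250 bases before a transcript start. GGGAATTTCCC was in 14 windows (0.0426%), and in no window of the other 6 matched members. ATAAAAG was in 4.83% of windows, among them those of Cxcl1, Cxcl2, Cxcl3 and S100a8. It was also found on the opposite strand in a window of Il1rn, a gene with 3 windows. ATAAAAG is likewise a run common to the 3 stretches shown, so its presence in them is no separate result. A match is a string of letters in a window, not a measured binding site.

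Maf, the gene named by the genotype label, was examined first. It measured 2.62 to 7.40 FPKM in the KO-labelled tumors and 1.63 to 7.26 FPKM in the WT-labelled tumors, with medians of 4.46 and 1.92 FPKM. In normal tissue the ranges were 1.52 to 6.27 FPKM under the KO label and 1.37 to 2.82 FPKM under the WT label. Maf was thus not lower under the KO label, and whether the deleted part of the gene contributes to its FPKM is not given, so every direction between labels below is between libraries labelled KO and WT. Relative sequencing depth, read from the step size of low FPKM values, was 0.697 to 1.84 of the median library. No 2 libraries were identical. Xist, an RNA of the inactive X chromosome, measured 7.38 to 49.9 FPKM in 6 libraries and at most 0.0719 FPKM in the other 18. The 6 were all KO-labelled, and without them 7 of 9 KO-labelled tumors and 2 of 6 KO-labelled normal libraries remain. Comparisons by label, and by tissue under the KO label, therefore also differ in Xist and Ddx3y expression.

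A pair of tumors stood apart. KO-8-hetero tumor 2 and WT-young tumor 2 held 1163 and 250 FPKM of Krt5, a keratin of squamous epithelium, while the other 22 libraries held at most 0.568 FPKM. Krt14, its keratin partner, measured 3173 and 579 FPKM in the same tumors and at most 22.6 FPKM in the others. KO-8-hetero tumor 2 was the highest of the 14 tumors for 7 of the 10 members. Results that rest on the 2 tumors are therefore also given without them.

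Every member was higher in tumors than in normal tissue, under both genotype labels. Against normal tissue with the same label, 10 of 10 members passed the threshold in KO-labelled tumors and 10 of 10 in WT-labelled tumors (limma on log2(FPKM + 1), Benjamini-Hochberg adjusted p under 0.05 over all 13799 genes). Of all genes tested, 47.2% were called in the KO-labelled comparison, 24.1% as higher, and 30.4% in the WT-labelled comparison, 15.5% as higher. The median member was higher by 3.25 and 3.05 on the log2(FPKM + 1) scale, against a median of 0.02 over all genes in each. All 10 members were also called in both comparisons without the 2 Krt5-high tumors. In bulk tissue more neutrophils and more RNA per cell cannot be told apart. In the same comparisons all 6 smooth muscle markers tested were called lower. Of 8 mast cell markers, 7 were called higher and 1 lower under each label. The part of such shifts in tissue make-up was not tested.

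**Figure D1:**
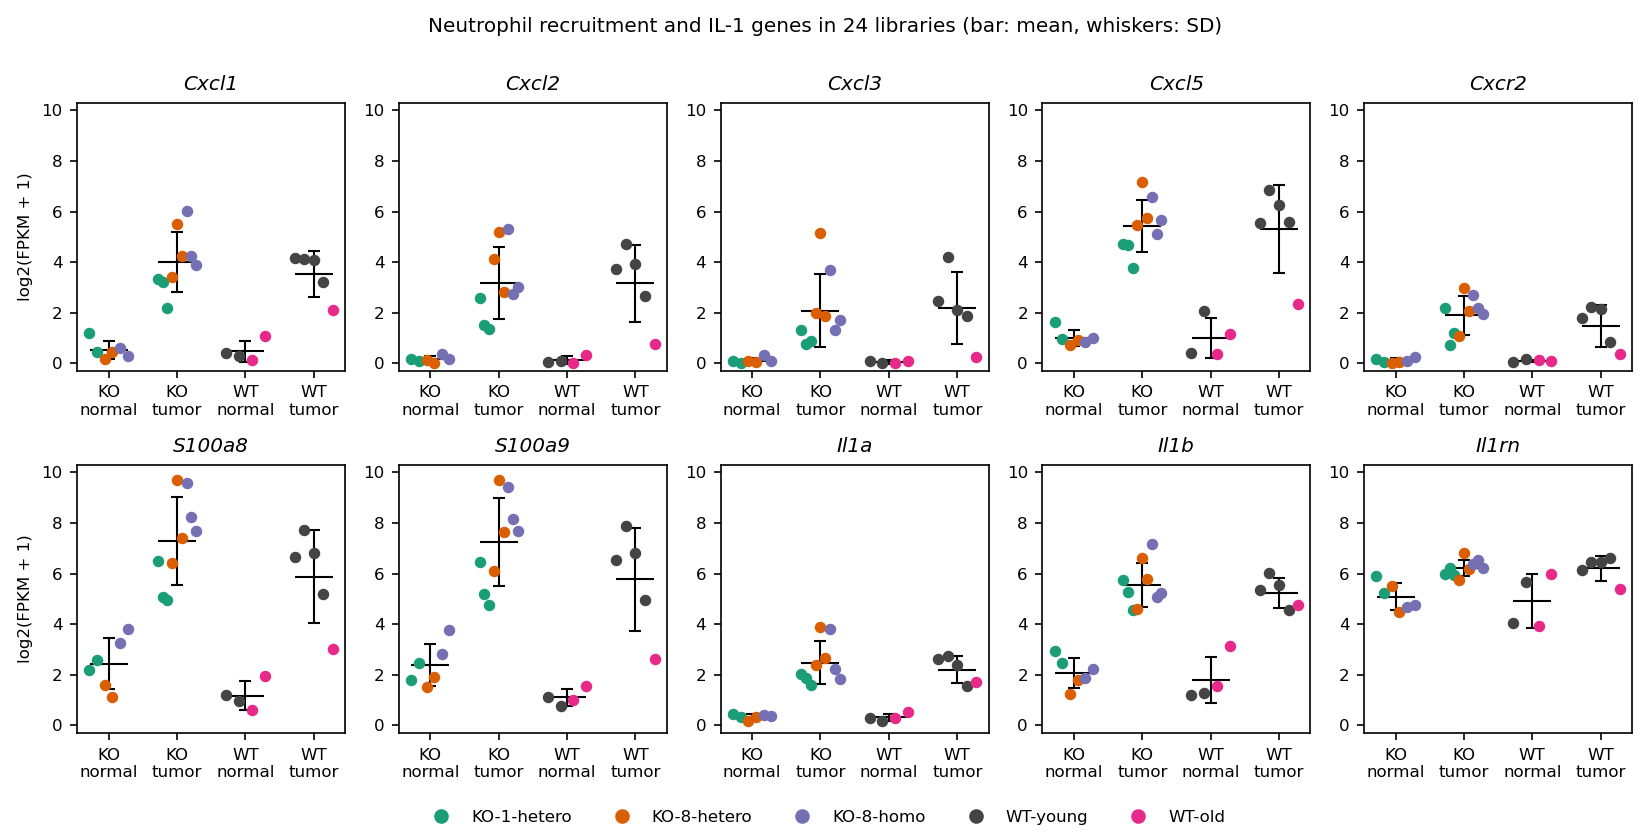
Level of each of the 10 genes in the 24 libraries, as log2(FPKM + 1), by genotype label and tissue. Each point is 1 library coloured by title group, the horizontal bar is the group mean and the whiskers are the SD. The tumor points lie above all normal points for Cxcl1, Cxcl2, Cxcl5, Cxcr2, Il1a and Il1b, and Il1rn starts from a high level in normal tissue. How many of all genes separate tumors from normal libraries in this way was not counted.

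Cxcl5, a chemokine made chiefly by epithelium, was the most abundant of the 4 ligands. In KO-labelled tumors it measured 25.3, 24.7 and 12.6 FPKM for KO-1-hetero, 42.9, 145 and 52.7 FPKM for KO-8-hetero, and 94.8, 34.0 and 50.1 FPKM for KO-8-homo. The WT-young tumors gave 45.6, 114, 74.7 and 47.6 FPKM and the WT-old tumor 4.15 FPKM. KO-labelled normal tissue ranged from 0.672 to 2.06 FPKM with a median of 0.910 FPKM, and the WT-labelled normal libraries gave 0.324, 3.18, 0.293 and 1.24 FPKM. The 14 tumors did not overlap the 10 normal libraries, although the WT-old tumor was only 1.30 times the highest normal library. The differences between tumor and normal were 4.43 (SE 0.528, limma adjusted p = 1.95e-06) under the KO label and 4.32 (SE 0.672, limma adjusted p = 0.000118) under the WT label, on the log2(FPKM + 1) scale.

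Cxcl1, the ligand also known as KC, was next. It measured 9.04, 8.18 and 3.53 FPKM for KO-1-hetero tumors, 9.53, 44.3 and 17.7 FPKM for KO-8-hetero, and 63.2, 17.7 and 13.7 FPKM for KO-8-homo. The WT-young tumors gave 17.0, 16.4, 15.9 and 8.29 FPKM, and the WT-old tumor gave 3.27 FPKM. Normal tissue held 0.118 to 1.29 FPKM under the KO label (median 0.368 FPKM) and 0.330, 0.228, 0.101 and 1.09 FPKM under the WT label. The lowest tumor was 2.53 times the highest normal library, so tissue types did not overlap. The rise was 3.47 (SE 0.436, limma adjusted p = 3.47e-06) in KO-labelled and 3.06 (SE 0.555, limma adjusted p = 0.000449) in WT-labelled tissue, on the log2(FPKM + 1) scale.

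Cxcl2, also called MIP-2 and made largely by myeloid cells, was near the lower end of detection in normal colon. Its tumor values were 5.03, 1.87 and 1.60 FPKM for KO-1-hetero, 16.3, 35.4 and 5.99 FPKM for KO-8-hetero, 39.0, 5.61 and 7.07 FPKM for KO-8-homo, 12.4, 25.2, 14.4 and 5.25 FPKM for WT-young, and 0.720 FPKM for WT-old. No normal library exceeded 0.283 FPKM, and all 14 tumors did. Tumor and normal differed by 3.03 (SE 0.559, limma adjusted p = 0.000183) under the KO label and 3.04 (SE 0.711, limma adjusted p = 0.00304) under the WT label on the log2(FPKM + 1) scale.

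Cxcl3 was the scarcest ligand and the most uneven. It measured 1.51, 0.683 and 0.843 FPKM for KO-1-hetero tumors, 2.96, 34.7 and 2.68 FPKM for KO-8-hetero, 12.0, 1.49 and 2.30 FPKM for KO-8-homo, 4.56, 17.5, 3.34 and 2.67 FPKM for WT-young, and 0.194 FPKM for WT-old. The highest values were those of the 2 Krt5-high tumors. Normal libraries held at most 0.271 FPKM, and 13 of 14 tumors lay above that, the WT-old tumor being the exception. Cxcl3 rose by 1.97 (SE 0.549, limma adjusted p = 0.00563) under the KO label and 2.13 (SE 0.699, limma adjusted p = 0.0245) under the WT label on the log2(FPKM + 1) scale. The KO-labelled call was lost without the 6 KO-labelled libraries that express Xist, an RNA of the inactive X chromosome, which are 2 of the 9 tumors and 4 of the 6 normal libraries (difference 2.06, limma adjusted p = 0.116). The WT-labelled call was lost without WT-young tumor 1 (2.06, limma adjusted p = 0.0504), WT-young tumor 2 (1.63, limma adjusted p = 0.0797) or WT-old normal 1 (2.11, limma adjusted p = 0.0549).

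The summed level of the 4 ligands ranged from 0.395 to 3.55 FPKM in normal tissue and from 8.33 to 259 FPKM in tumors. Under the KO label Cxcl5 took 61.5% ± 7.85 (SD, n = 9) of the sum in tumors and 63.4% ± 11.4 (SD, n = 6) in normal tissue. The corresponding shares were 63.3% ± 9.81 (SD, n = 5) and 63.6% ± 23.3 (SD, n = 4) under the WT label. None of the 4 comparisons of this share passed an exact permutation test (two-sided, adjusted p = 0.992 over 12 tests of ratios and shares in each of them), and the WT-labelled normal shares spread from 42.4% to 91.2%. Cxcl3 reached its highest tumor shares, 13.4% and 10.1%, in the 2 Krt5-high tumors.

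**Figure D2:**
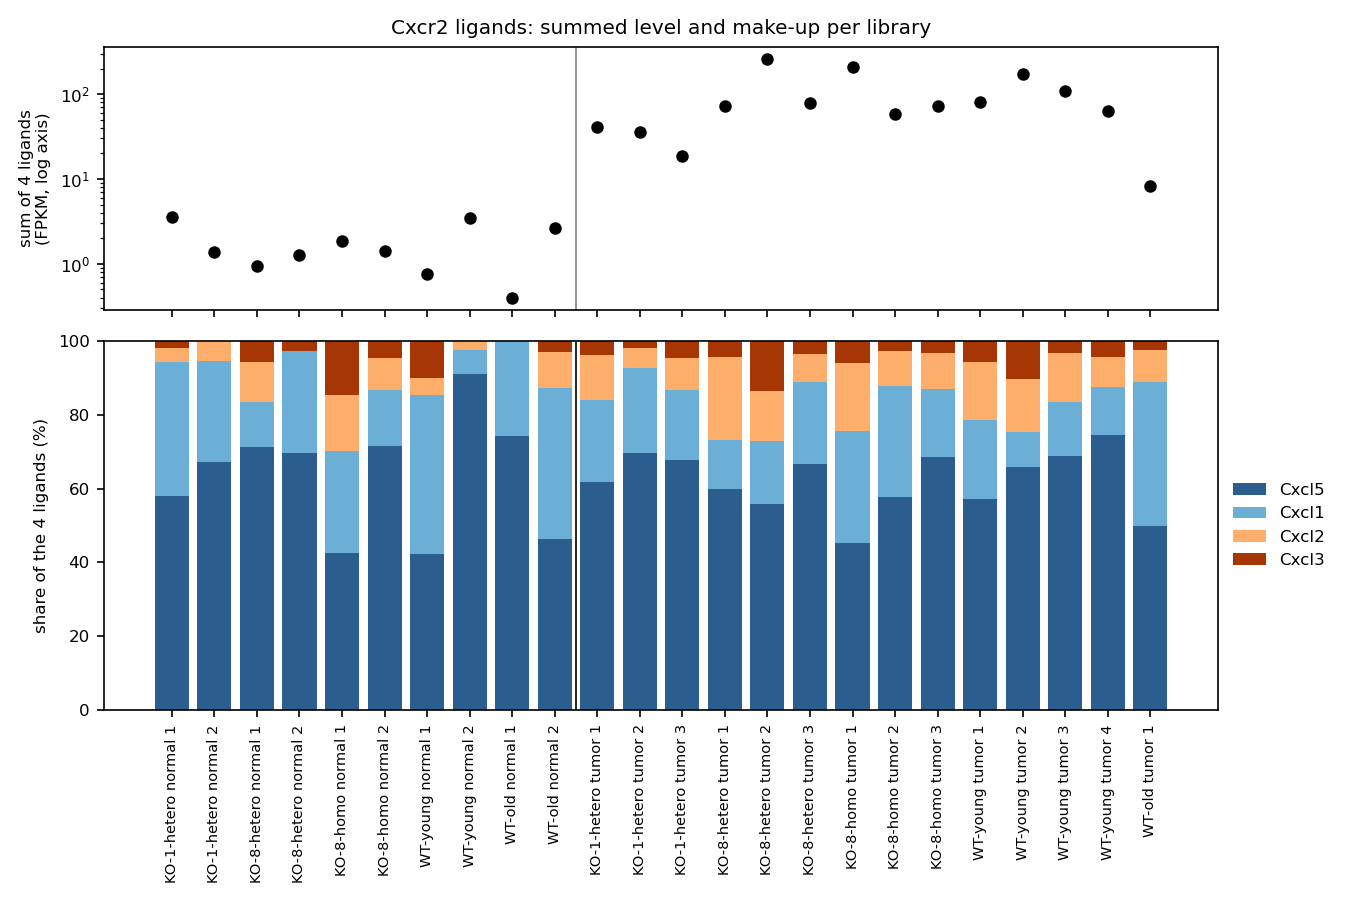
Cxcr2 ligands in each library, with the 10 normal libraries left of the line and the 14 tumors right of it. The upper panel gives the sum of Cxcl1, Cxcl2, Cxcl3 and Cxcl5 in FPKM on a log axis, and the lower panel the share of each in percent. The sum is at most 3.55 FPKM in normal tissue and at least 8.33 FPKM in tumors, while Cxcl5 is the largest share in 23 of the 24 libraries.

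Cxcr2, the receptor carried mainly by neutrophils, was barely measured in normal colon, at 0.0157 to 0.193 FPKM over the 10 libraries. Tumors gave 3.53, 0.630 and 1.32 FPKM for KO-1-hetero, 1.10, 6.94 and 3.21 FPKM for KO-8-hetero, 5.51, 3.60 and 2.88 FPKM for KO-8-homo, 2.49, 3.71, 3.37 and 0.813 FPKM for WT-young, and 0.295 FPKM for WT-old. All 14 tumors exceeded all normal libraries. The log2(FPKM + 1) difference was 1.79 (SE 0.304, limma adjusted p = 8.12e-05) under the KO label and 1.38 (SE 0.387, limma adjusted p = 0.0105) under the WT label. This scale understates the change of a gene at such low levels.

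Calprotectin transcripts showed the largest rises of the set. S100a8 measured 88.9, 32.8 and 29.8 FPKM for KO-1-hetero tumors, 84.7, 841 and 168 FPKM for KO-8-hetero, and 767, 302 and 207 FPKM for KO-8-homo. The WT-young tumors gave 100.4, 209, 112 and 35.7 FPKM, and the WT-old tumor gave 7.06 FPKM. Normal tissue under the KO label held 1.15 to 13.1 FPKM (median 4.32 FPKM), with the KO-8-homo libraries highest at 8.48 and 13.1 FPKM. The WT-labelled normal libraries held 1.30, 0.948, 0.523 and 2.89 FPKM. The 13 tumors other than WT-old lay above all normal libraries, and the WT-old tumor lay below both KO-8-homo normal libraries.

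S100a8 rose by 4.86 (SE 0.727, limma adjusted p = 2.13e-05) under the KO label and 4.70 (SE 0.925, limma adjusted p = 0.000851) under the WT label on the log2(FPKM + 1) scale. Ordered by the size of the rise, it was number 10 of 13799 genes in each comparison, and S100a9 was number 11 in each. S100a9, the partner subunit, rose by 4.85 (SE 0.736, limma adjusted p = 2.48e-05) and 4.66 (SE 0.937, limma adjusted p = 0.00098). Its tumor values ran from 5.20 FPKM in the WT-old tumor to 838 FPKM in KO-8-hetero tumor 2, with a median of 102 FPKM, and followed those of S100a8 library by library.

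In tumors the log2 ratio of S100a8 to S100a9 was 0.05 ± 0.170 (SD, n = 9) under the KO label and 0.11 ± 0.217 (SD, n = 5) under the WT label, so the subunits were near equal in FPKM. It was 0.04 ± 0.443 (SD, n = 6) and 0.07 ± 0.339 (SD, n = 4) in the normal libraries. No comparison of this ratio passed the exact permutation test (two-sided, adjusted p = 0.992 in each of 4).

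Il1b, the secreted agonist made mainly by monocytes, macrophages and neutrophils, measured 52.8, 37.2 and 22.8 FPKM for KO-1-hetero tumors, 23.6, 96.6 and 55.0 FPKM for KO-8-hetero, and 143, 32.8 and 36.4 FPKM for KO-8-homo. The WT-young tumors gave 39.7, 63.5, 45.3 and 22.5 FPKM and the WT-old tumor 26.2 FPKM. Normal tissue held 1.34 to 6.71 FPKM under the KO label (median 3.21 FPKM) and 1.30, 1.44, 1.98 and 7.80 FPKM under the WT label. The lowest tumor was 2.88 times the highest normal library. For Il1b the WT-old tumor did not stand below the others, unlike for the chemokines and calprotectin. The differences were 3.48 (SE 0.379, limma adjusted p = 7.71e-07) and 3.44 (SE 0.482, limma adjusted p = 4.41e-05) on the log2(FPKM + 1) scale under the KO and WT labels, and Il1b had the smallest p of the 10 members in both.

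Il1a, an agonist held inside epithelial and myeloid cells and released on damage, was lower in level. Its tumors ranged from 1.97 to 14.01 FPKM with a median of 3.96 FPKM, and its normal libraries from 0.118 to 0.434 FPKM. The highest tumors were KO-8-hetero tumor 2 at 14.01 FPKM and KO-8-homo tumor 1 at 12.9 FPKM, and the next was at 5.68 FPKM. The lowest tumor was 4.54 times the highest normal library, the widest gap of the 10 genes. The rise was 2.13 (SE 0.294, limma adjusted p = 8.73e-06) under the KO label and 1.89 (SE 0.374, limma adjusted p = 0.000891) under the WT label on the log2(FPKM + 1) scale.

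Il1rn, the antagonist, differed from the other members in its high level in normal colon. The KO-labelled normal libraries held 59.0, 36.7, 44.3, 21.2, 24.8 and 26.3 FPKM, and the WT-labelled ones 15.5, 50.3, 14.4 and 61.7 FPKM. Tumors held 61.6, 73.4 and 60.0 FPKM for KO-1-hetero, 52.3, 113 and 71.5 FPKM for KO-8-hetero, 82.1, 91.3 and 73.3 FPKM for KO-8-homo, 69.6, 86.0, 86.5 and 97.0 FPKM for WT-young, and 41.2 FPKM for WT-old. The ranges overlapped, with 10 of 14 tumors above all normal libraries. The rise was 1.12 (SE 0.288, limma adjusted p = 0.00311) under the KO label and 1.30 (SE 0.367, limma adjusted p = 0.0107) under the WT label on the log2(FPKM + 1) scale. The WT-labelled call was lost without WT-young normal 1 (difference 1.01, limma adjusted p = 0.0509) or WT-old normal 1 (0.98, limma adjusted p = 0.0613), the libraries with the lowest Il1rn.

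Set against each other, the agonist gained on the antagonist in tumors. Il1b divided by Il1rn was 0.0302 to 0.143 in the KO-labelled normal libraries and 0.360 to 1.74 in the KO-labelled tumors. Under the WT label it was 0.0287 to 0.137 in normal tissue and 0.232 to 0.739 in tumors. KO-8-homo tumor 1 was the one library with more Il1b than Il1rn. The mean log2 ratio, computed with 1 added to each FPKM, was -0.65 ± 0.716 (SD, n = 9) in tumors and -3.01 ± 0.638 (SD, n = 6) in normal tissue under the KO label. The difference of 2.35 gave an exact permutation p of 0.0002, the smallest that 5005 splits can give two-sided, and an adjusted p of 0.0024 over 12 tests. Under the WT label the means were -0.97 ± 0.639 (SD, n = 5) and -3.11 ± 0.883 (SD, n = 4). That difference of 2.14 had an exact permutation p of 0.0159 and did not pass after adjustment (adjusted p = 0.0952). Without the Xist-expressing libraries the KO-labelled difference was 2.07, and with 7 tumors and 2 normal libraries the 36 splits allow no exact p below 0.0278, so that the test could not pass after adjustment here (adjusted p = 0.167).

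**Figure D3:**
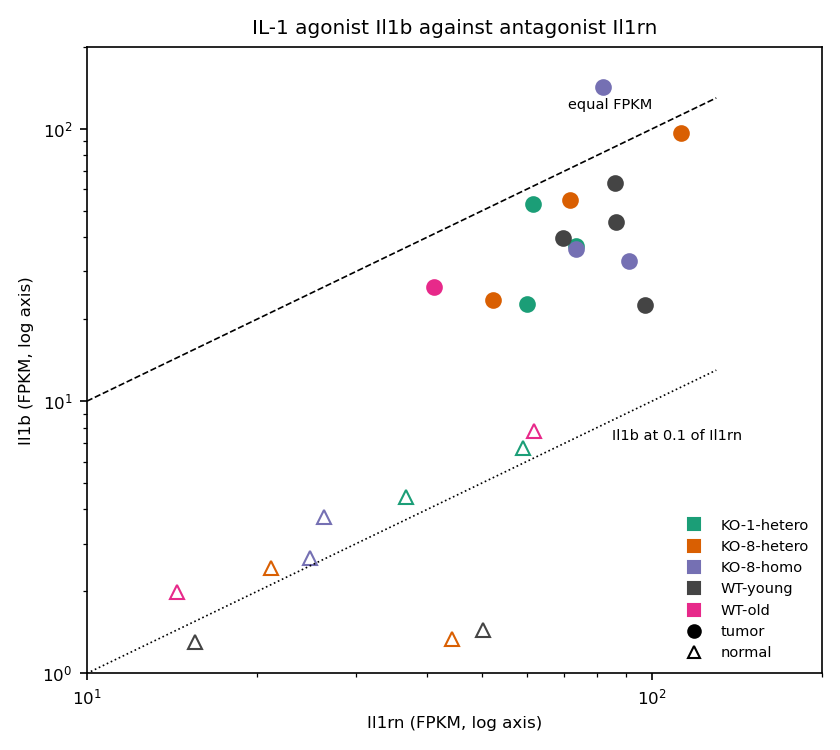
Il1b against Il1rn in FPKM, both axes logarithmic, for 14 tumors (circles) and 10 normal libraries (triangles), coloured by title group. The dashed line marks equal FPKM and the dotted line Il1b at 0.1 of Il1rn. The triangles lie near the dotted line, except for 2 well below it, and the circles between the lines or, for KO-8-homo tumor 1, above the dashed line.

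Among the other genes of the IL-1 pathway, 5 of 14 receptor and signalling genes were called higher in KO-labelled tumors and 2 of 14 in WT-labelled tumors, with none lower. The WT-labelled share is near the 15.5% of all genes called higher there, and the KO-labelled count stands beside 24.1%. Il1r2, a decoy receptor that binds IL-1 without signalling, was higher by 1.79 (SE 0.265, limma adjusted p = 1.85e-05) under the KO label. Irak1, a kinase of the receptor complex, rose by 0.44 (SE 0.0795, limma adjusted p = 0.000157). Traf6, the ubiquitin ligase downstream of it, rose by 0.59 (SE 0.164, limma adjusted p = 0.00524). Of 8 other IL-1 family genes tested, 6 were called higher under the KO label and 4 under the WT label, out of 12 in the list. Il1rl1, the receptor of IL-33, rose by 3.04 (SE 0.538, limma adjusted p = 0.000123), and its ligand Il33 by 1.42 (SE 0.276, limma adjusted p = 0.000304), under the KO label.

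Of 11 inflammasome and IL-1 processing genes, 3 were called higher and 3 lower under each label. Under the KO label this is near the share of all genes, 24.1% called higher and 23.2% lower, and under the WT label those shares were 15.5% and 14.8%. Under the KO label the sensors Nlrp3 and Mefv rose by 0.96 (SE 0.160, limma adjusted p = 6.94e-05) and 0.92 (SE 0.194, limma adjusted p = 0.000661). Pycard, the adaptor that joins such sensors to caspase-1, fell from a mean of 114 to 55.3 FPKM, a difference of -1.14 (SE 0.237, limma adjusted p = 0.000576) on the log2(FPKM + 1) scale.

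Of 16 neutrophil marker genes, 15 were in the tables and 10 passed the filter. Of those 10, 9 were called higher in KO-labelled tumors and 5 in WT-labelled tumors, beside 24.1% and 15.5% of all genes. Csf3r, the receptor for the granulocyte growth factor G-CSF, averaged 0.563 FPKM in KO-labelled normal tissue and 6.85 FPKM in KO-labelled tumors (difference 2.23, SE 0.271, limma adjusted p = 2.38e-06, log2(FPKM + 1) scale). Clec4d, a myeloid lectin, and Fpr1, the formyl peptide receptor, rose by 1.95 (SE 0.299, limma adjusted p = 2.72e-05) and 1.41 (SE 0.255, limma adjusted p = 0.000145). The summed list measured 4.61 to 21.2 FPKM in KO-labelled normal tissue, 21.0 to 570 FPKM in KO-labelled tumors, 3.57 to 5.13 FPKM in WT-labelled normal tissue and 13.3 to 273 FPKM in WT-labelled tumors. Its highest values came from the 2 Krt5-high tumors, in which Ltf, lactoferrin of secondary granules and of secretory epithelia, measured 426 and 215 FPKM against at most 4.51 FPKM elsewhere. Elane, neutrophil elastase, was listed at 0 in all WT-labelled libraries.

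Of 10 genes for the exit of neutrophils from vessels, 8 were called higher under the KO label and 5 under the WT label. The shares of all genes called higher were 24.1% and 15.5%. Icam1, an endothelial ligand of neutrophil integrins, rose by 1.86 (SE 0.201, limma adjusted p = 7.29e-07), and the integrin subunit Itgam by 1.43 (SE 0.198, limma adjusted p = 8.83e-06), under the KO label. Selp, P-selectin, rose by 2.102 (SE 0.390, limma adjusted p = 0.000197). Of 6 granulopoiesis and IL-17 pathway cytokines tested, out of 11 in the list, 6 were called higher under the KO label and 4 under the WT label. Tnf rose by 2.09 (SE 0.176, limma adjusted p = 4.67e-08) and Il23a, a subunit of IL-23, by 2.06 (SE 0.377, limma adjusted p = 0.00017) under the KO label.

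Other genes of the chemokine axis and of the S100 family gave mixed counts. They stand beside 24.1% of all genes called higher and 23.2% lower under the KO label. Under the WT label those shares were 15.5% and 14.8%. Of 6 chemokine-axis genes tested, none was called higher and 1 lower under the KO label, and 2 were called higher and 1 lower under the WT label. The lower gene, Cxcl12, holds neutrophils in the bone marrow through Cxcr4, and it fell from a mean of 48.2 to 26.7 FPKM under the KO label (limma adjusted p = 0.0195). Of 10 other S100 genes, 1 was called higher and 4 lower under the KO label, and 3 and 3 under the WT label. S100a1 and S100a13 fell by 1.24 (limma adjusted p = 3.12e-05) and 1.21 (limma adjusted p = 2.95e-05) on the log2(FPKM + 1) scale under the KO label.

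Genes that NF-kB induces, and markers of other cells, were counted in the same way. Of all genes, 24.1% were called higher and 23.2% lower under the KO label, and 15.5% and 14.8% under the WT label. The squamous marker counts below, 1 of 6, are near the shares called higher. Of 15 NF-kB induced genes 8 were called higher under the KO label and 6 under the WT label, with none lower. Saa3, an acute-phase protein, rose by 5.67 (SE 0.678, limma adjusted p = 1.97e-06) and Lcn2, a siderophore-binding protein of neutrophils and epithelium, by 3.80 (SE 0.580, limma adjusted p = 2.62e-05) under the KO label. Macrophage and monocyte markers were called higher for 7 of 10 genes under each label. Of receptors of calprotectin and other danger signals, 1 of 8 was called higher and 1 lower under the KO label and 2 higher under the WT label. The colon epithelial keratins Krt8 and Krt19 averaged 2350 and 2010 FPKM in KO-labelled tumors, and 4 of 9 colon epithelium markers were called lower under the KO label and 2 under the WT label. Fibroblast markers were called higher for 6 of 8 genes and lower for 1 under the KO label and higher for 2 under the WT label. Squamous markers were called higher for 1 of 6 under each label, T cell markers for 1 and 0 of 6, and B and plasma cell markers for 0 of 6 under both. None of the 18 lists held a gene called between KO-labelled and WT-labelled tumors.

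Tumors with the KO label were then compared with tumors with the WT label, the contrast in the title of the study. No member passed the threshold, in either direction (0 of 10, limma), and none had an unadjusted p under 0.05, while 0.00725% of all genes were called, 1 gene. Mean S100a8 under the KO label was 280 ± 310 FPKM (SD, n = 9), and under the WT label 92.8 ± 78.2 FPKM (SD, n = 5). The difference of 1.405 (SE 0.769, limma adjusted p = 0.651) and that of S100a9, 1.46 (SE 0.779, limma adjusted p = 0.645), were less than 2 SE on the log2(FPKM + 1) scale. Without the single WT-old tumor they were 0.687 and 0.675. Over all alternatives tried, S100a8 ran from 0.148 to 1.86 and S100a9 from 0.0574 to 1.99. Differences of the other 8 members ran from -0.11 to 0.46, and without the WT-old libraries Cxcl2, Cxcl5 and Il1rn changed sign, to -0.58, -0.62 and -0.19. These errors leave room for differences of either sign, so similar levels are not shown. With each library weighted by its estimated quality, 2 members passed and were lower under the KO label, Cxcl2 at -1.24 (limma adjusted p = 0.0433) and Cxcl3 at -1.49 (limma adjusted p = 0.0224), against 0.02 and -0.11 with equal weights. Of all 13799 genes, 2355 were called with these weights, against 1 with equal weights. Under those weights Cxcl1, Cxcl5, Cxcr2, Il1a, Il1b and Il1rn also changed sign, to between -0.95 (Cxcl5, limma adjusted p = 0.0557) and -0.11 (Cxcl1), and none of these 6 passed.

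In normal tissue none of the 10 members passed (limma), none had an unadjusted p under 0.05, and 0% of all genes were called. The Xist-expressing libraries are all KO-labelled, so this contrast mixes label with Xist expression. S100a8 and S100a9 again had the largest estimates, 1.25 (SE 0.890) and 1.28 (SE 0.902), with the KO-8-homo normal libraries the highest of the 10. The interaction of label and tissue, which asks whether the rise in tumors depended on the label, was called for none of the members and for 0% of all genes (limma), and none of the members had an unadjusted p under 0.05.

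**Figure D4:**
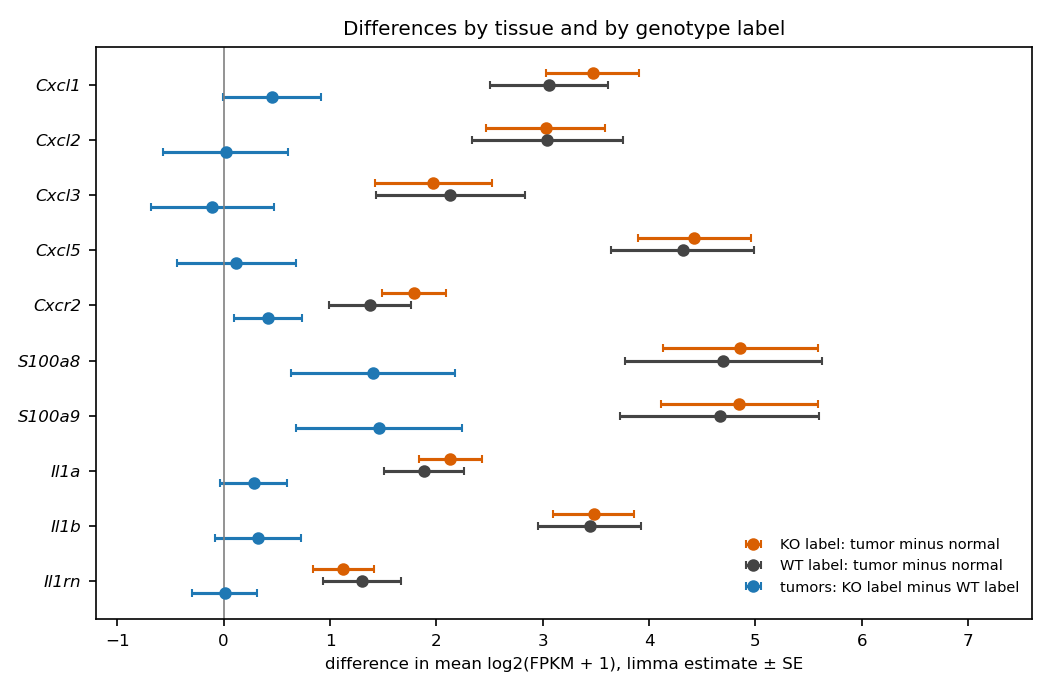
Differences in mean log2(FPKM + 1) for each gene with their standard errors: tumor minus normal under the KO label, tumor minus normal under the WT label, and KO-labelled minus WT-labelled tumors. The first 2 series lie right of 0 for all 10 genes, from 1.12 to 4.86, and the third reaches 1.46 at most.

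Tumors were also compared by title group, with the 3 tumors of each KO title group set against the same 4 WT-young tumors, so that these comparisons share their controls. KO-1-hetero tumors had the lowest group mean of the 4 replicated tumor groups for each of the 10 members. KO-1-hetero tumor 3 is among the Xist-expressing libraries, at 49.9 FPKM, and no WT-young tumor is. Against WT-young, none of the 10 passed (limma), with 2.88% of all genes called. An unadjusted p under 0.05 was found for 3 members and for 2632 of all 13799 genes. Cxcl5 averaged 20.9 ± 7.15 FPKM (SD, n = 3) and 70.4 ± 31.8 FPKM (SD, n = 4), and all 3 KO-1-hetero tumors lay below all 4 WT-young tumors. That difference was -1.67 (SE 0.473, limma adjusted p = 0.0641). Cxcl2 averaged 2.83 ± 1.91 FPKM (SD, n = 3) against 14.3 ± 8.24 FPKM (SD, n = 4), also without overlap, and differed by -1.93 (SE 0.591, limma adjusted p = 0.0847). Cxcl3 differed by -1.68 (SE 0.691, limma adjusted p = 0.193), also without overlap. S100a8 differed by -1.10 (limma adjusted p = 0.412), with overlapping values. How many of all genes separate these title groups without overlap was not counted.

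Markers of other cells moved in the same comparison, in which 1.63% of all genes were called higher and 1.25% lower. Of 6 B and plasma cell markers 5 were called higher in KO-1-hetero than in WT-young tumors (median difference 2.28), as were 2 of 6 smooth muscle markers (2.03), 2 of 10 macrophage and monocyte markers (0.85) and 1 of 6 T cell markers (1.05), while 1 of 9 colon epithelium markers was called lower. Summed B and plasma cell markers measured 850, 943 and 855 FPKM for KO-1-hetero and 108, 258, 224 and 316 FPKM for WT-young, without overlap, and summed smooth muscle markers 1058, 701 and 1052 FPKM against 368, 307, 199.96 and 172 FPKM, also without overlap. None of 10 neutrophil markers was called (limma), with a median difference of -0.40. The part of these shifts in the members' differences was not tested.

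The call of Cxcl2 and Cxcl5 was close to the threshold. With library weights, 5 members passed as lower in KO-1-hetero, Cxcl2, Cxcl3, Cxcl5, S100a8 and S100a9, and Cxcl2 measured -2.46 (limma adjusted p = 0.00424). Of all 13799 genes, 2860 were called with these weights, against 397 with equal weights. Cxcl5 passed when KO-8-hetero tumor 2, WT-young normal 1 or WT-young normal 2 was left out, with limma adjusted p values of 0.0356, 0.0414 and 0.0412. Cxcl2 passed without KO-8-homo tumor 1 (limma adjusted p = 0.0471). None of these libraries is in the contrast itself, and they enter it through the shared estimate of the spread. Without the 2 Krt5-high tumors none passed, and Cxcl5 and Cxcl2 differed by -1.41 and -1.62.

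Against KO-8-hetero tumors, KO-1-hetero tumors were lower for all 10 members, but none passed (limma) and 0% of all genes were called. An unadjusted p under 0.05 was found for 7 members and for 1363 of all 13799 genes. No B and plasma cell or smooth muscle marker was called there (limma), with median differences of 1.91 and 0.85. Cxcl2 differed by -2.21 (limma adjusted p = 0.242), S100a8 by -2.34 (limma adjusted p = 0.273) and Cxcl5 by -1.74 (limma adjusted p = 0.249). Without the 2 Krt5-high tumors, 1 of which is in KO-8-hetero, the S100a8 difference was -1.41 and the Cxcl3 difference -0.95 in place of -2.02. Leaving out KO-8-hetero tumor 3 made the Cxcl2 difference -2.82 and called it (limma adjusted p = 0.0434).

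KO-8-homo tumors carried the highest mean S100a8, 425 ± 299 FPKM (SD, n = 3), and 2 of the 3 lay above all WT-young tumors, whose mean was 114 ± 71.3 FPKM (SD, n = 4). The difference of 1.91 (SE 0.686, limma adjusted p = 0.315) and that of S100a9, 1.86 (SE 0.722, limma adjusted p = 0.368), did not pass, and these were the 2 members with an unadjusted p under 0.05. Of all 13799 genes 1399 had an unadjusted p under 0.05, and 0.457% were called, 0.058% as higher and 0.399% as lower. The estimates were 2.28 (limma adjusted p = 0.109) and 2.30 (limma adjusted p = 0.126) without the 2 Krt5-high tumors. The remaining 8 members differed by -0.42 to 0.80. KO-8-hetero against WT-young and KO-8-homo against KO-8-hetero likewise called 0 of 10 members (limma), with 0.00725% and 0.0507% of all genes called and no member at an unadjusted p under 0.05.

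Within the 14 tumors the members rose and fell together. All 45 pairs had a positive Pearson r of log2(FPKM + 1), with a median of 0.81, and 42 passed a permutation test (adjusted over 90 pairs in tumors and normal tissue). S100a8 with S100a9 gave 0.996 (Spearman 0.996), and Cxcl2 with Cxcl3 gave 0.911 (Spearman 0.934). The lowest were Il1b and Il1a with Il1rn, at 0.475 and 0.477 (Spearman 0.319 and 0.288), neither of which passed. Of the 45 pairs, 36 passed without the 2 Krt5-high tumors and 40 within the 9 KO-labelled tumors alone. Each pair was also tested without the 2 tumors farthest from the median of its first gene, which can differ between pairs. Cxcl3, Cxcl5, Cxcr2, S100a8 and S100a9 with Il1rn, and Cxcl2 with Il1b, then no longer passed. Their r values were 0.485, 0.582, 0.496, 0.308, 0.332 and 0.455, with fewer tumors, so those calls depended on the tumors left out.

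In the 10 normal libraries 40 of 45 pairs were positive, with a median r of 0.39, and 6 passed. These were S100a8 with S100a9 (r 0.931), Il1a with Il1b (0.892), Cxcl1 with Il1b (0.822), Cxcl1 with Il1a (0.815), Cxcl5 with Il1rn (0.760) and Cxcl2 with Cxcl3 (0.748). Spearman correlation passed for 4 of the 6, the exceptions being Cxcl1 with Il1b (0.697) and Cxcl2 with Cxcl3 (0.708). Without the 2 libraries farthest from the median of the first gene, Cxcl1 with Il1b, Cxcl1 with Il1a and Cxcl2 with Cxcl3 fell to 0.394, 0.618 and 0.413. Their unadjusted p values were 0.332, 0.108 and 0.298 (permutation test), with fewer libraries, so these calls depended on the libraries left out. S100a8 with S100a9, Il1a with Il1b and Cxcl5 with Il1rn gave 0.795, 0.836 and 0.768 (unadjusted p = 0.019, 0.00905 and 0.0278, permutation test). No adjusted p was computed without those libraries, so none of these pairs is shown to pass there.

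The spread between single tumors was wide. The highest tumor was 179 times the lowest for Cxcl3, 161 times for S100a9 and 119 times for S100a8, against 6.36 times for Il1b and 2.74 times for Il1rn. KO-8-hetero tumor 2 was the highest for 7 members and KO-8-homo tumor 1 for the other 3, Cxcl1, Cxcl2 and Il1b. The WT-old tumor was the lowest for 8 members, all except Il1a and Il1b, for which WT-young tumor 4 was the lowest. KO-8-homo tumor 1 had no such squamous signal, with Krt5 at 0.316 FPKM, and held 10.7 FPKM of Csf3r and 77.2 FPKM of the neutrophil gene Retnlg, the highest Retnlg of all libraries.

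**Figure D5:**
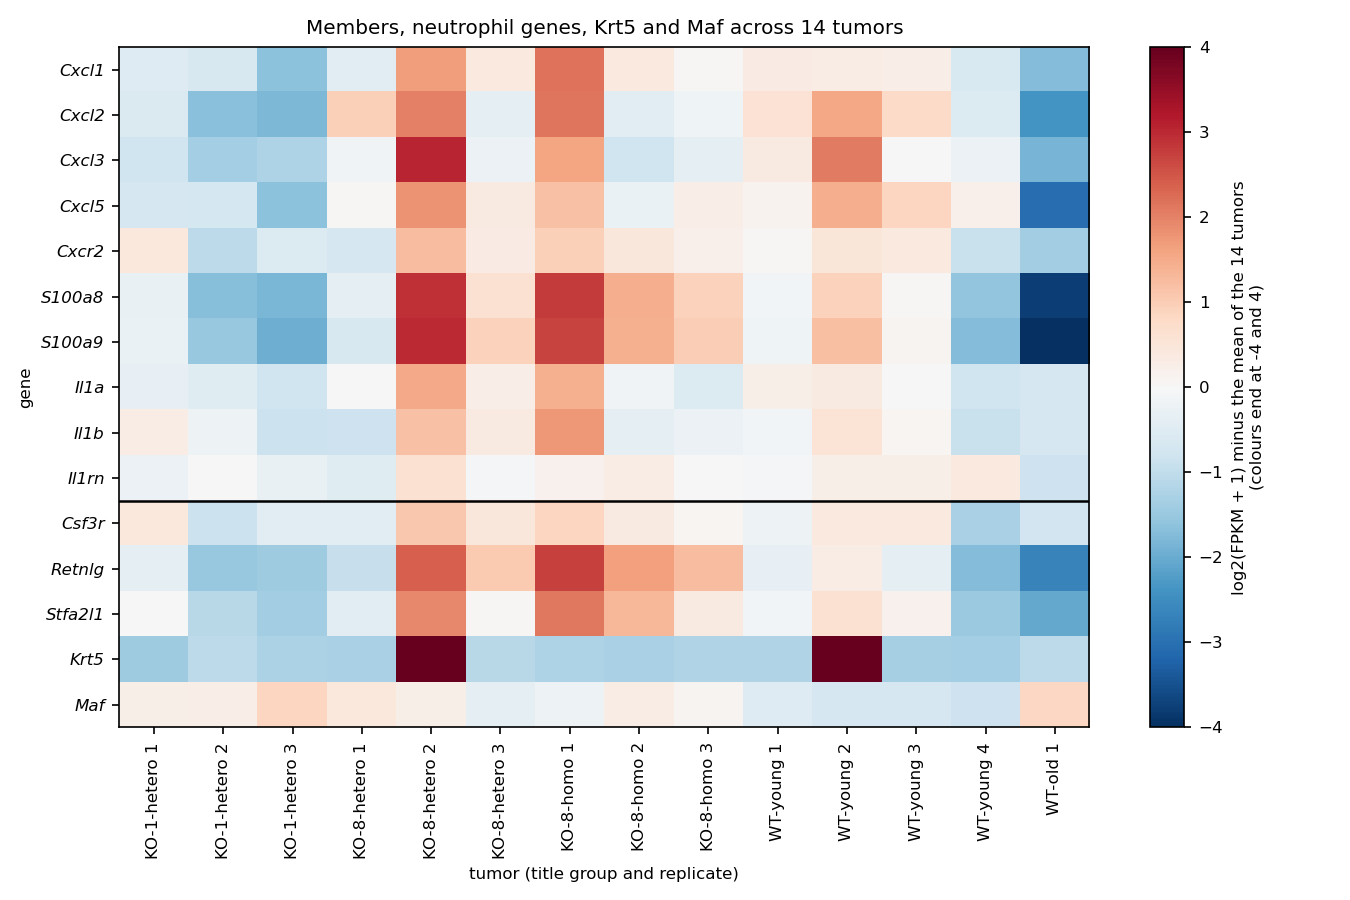
The 10 genes in the 14 tumors, with 3 neutrophil genes, Krt5 and Maf below the line, as log2(FPKM + 1) minus the mean of the 14 tumors for each gene. Red is above the mean and blue below, and colours end at -4 and 4. KO-8-hetero tumor 2 and KO-8-homo tumor 1 are red for all 10 genes, WT-old tumor 1 is blue for all 10, and Krt5 is high in KO-8-hetero tumor 2 and WT-young tumor 2.

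Of 13798 other genes, those whose pattern over the 14 tumors was most like each member were listed by Pearson r, as a description. For S100a8 they were S100a9, then Stfa2l1 (0.977) and Retnlg (0.969), both neutrophil markers. For Cxcr2 the first was Csf3r (0.951), then Il11 (0.936) and Stfa2l1 (0.935). For Il1a they were the cytokines Il6 (0.962), Csf3 (0.926) and Osm (0.926). For Il1b they were Il1a (0.881), Il33 (0.877) and Ptgs2 (0.876), the inducible cyclooxygenase. For Cxcl1 they were Dio2 (0.938), Ier3 (0.935) and S100a8 (0.935), and for Cxcl2 Adam8 (0.973), Ttc9 (0.954) and Hdc (0.935). Cxcl3 was closest to Krt17 (0.957), Hcar2 (0.932) and Arg1 (0.932), and Cxcl5 to Gipc1 (0.944), Krt7 (0.940) and Tnfrsf12a (0.937). Krt17 and Krt7 are keratins, of stressed and of ductal epithelium. Il1rn was closest to Capn2 (0.923), Ly6g6e (0.903) and Nsdhl (0.903). Without the 2 Krt5-high tumors, Hcar2 and Arg1 dropped to places 56 and 31 for Cxcl3, with r of 0.831 and 0.854. For Il1b, Il1a, Il33 and Ptgs2 dropped to places 5, 11 and 7, and Ly6g6e dropped to place 16 for Il1rn, whereas Csf3r stayed first for Cxcr2 and Il6 first for Il1a.

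Across the 14 tumors Csf3r correlated with Cxcr2 at r 0.951 (Spearman 0.916, permutation test adjusted p = 7.5e-05 over 30 relations), with S100a8 at 0.858 (Spearman 0.811, adjusted p = 0.00035, permutation test) and with Il1b at 0.827 (Spearman 0.873, adjusted p = 0.000736, permutation test). Without the 2 Krt5-high tumors these were 0.936, 0.814 and 0.773, and without the 2 tumors farthest from the median of the member 0.961, 0.839 and 0.764. Csf3r with Cxcl5 passed at 0.621 (Spearman 0.675, adjusted p = 0.0254, permutation test), but not without the farthest 2 (r 0.575, unadjusted p = 0.0502, permutation test) or without the 2 Krt5-high tumors (r 0.5003, unadjusted p = 0.0955, permutation test). With Il1rn it did not pass (r 0.428, Spearman 0.310, adjusted p = 0.152, permutation test). The summed neutrophil markers gave r of 0.785 with Cxcl5 (Spearman 0.785, adjusted p = 0.00159, permutation test). It was 0.807 without the farthest 2 and 0.683 without the 2 Krt5-high tumors (unadjusted p = 0.00143 and 0.0147, permutation test). With Il1rn the sum gave 0.623 (Spearman 0.534, adjusted p = 0.026, permutation test), and 0.286 and 0.430 without the same tumors. Csf3r was set apart from this sum after the sum was seen to be led by Ltf in 2 tumors.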

How the data were processed

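RNA came from a miRNeasy extraction and was sequenced as TruSeq stranded mRNA libraries, per the labels' protocols. The submitters' processing notes name mm10, TopHat2 2.1.1, Bowtie2 2.2.8, SAMtools 0.1.18 and Cuffdiff 2.2.1. The authors deposited 1 table of FPKM values per library. Fragment totals are not given, so no counting interval was computed, and replicate numbers limit precision. Values were tested as log2(FPKM + 1) with limma 3.58.1 (R 4.3.3, intensity trend, two-sided, Benjamini-Hochberg). A model of the 4 combinations of label and tissue and one of the 10 title groups each used all 24 libraries, so small groups share 1 estimate of the spread. Ratios and shares were compared by exact permutation tests and correlations by 100000 resamples (numpy 2.4.6). The fits were tested on simulated data. Named genes are all 10 members, Maf, from each of the 18 lists up to 3 genes with the smallest p among those called in KO-labelled tumors against normal, of which some are given, and the 3 genes most like each member. Members and lists were chosen with earlier results of these data known. Krt14, Krt5, Ltf and Retnlg values were chosen after they were seen. Alternatives were another pseudocount, filters, scalings, no trend, library weights, left-out libraries and a replicate block. Gene coordinates are from GENCODE M21 and promoters from RefSeq (GRCm38.p6), where 9 of 10 members matched. Cxcl5 has no promoter shown.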

Additional observations from a re-analysis of the deposited data

Results flagged for a closer look

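Of 52 checks for a library far from the rest of its group of 4 to 9, 4 found one, and chance alone would give about 1 in 20. All 4 were in KO-labelled normal tissue. Cxcl3 was highest in KO-8-homo normal 1, at 0.271 FPKM. Cxcl5 was highest in KO-1-hetero normal 1, at 2.06 FPKM. The log2 ratio of Il1b to Il1rn was lowest in KO-8-hetero normal 1, at -4.28. The log2 ratio of S100a8 to S100a9 was lowest in KO-8-hetero normal 2, at -0.81.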

How the results depend on the processing

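The 10 calls in KO-labelled tumors against normal held under all alternatives except that Cxcl3 was lost without the Xist-expressing libraries (2.06 against 1.97, limma adjusted p = 0.116, with fewer libraries), and leaving out single libraries kept 10 called. Under the WT label 8 to 10 were called when single libraries were left out. Whether libraries with the same replicate number share an animal is not given. Deviations of same-numbered tumor and normal libraries from their group means correlated at -0.16 to 0.35. With 2 normal libraries per title group their deviations mirror each other, so these values cannot decide whether the samples are paired. With prefix and number as a replicate block, Cxcl3 (2.28 against 2.13, limma adjusted p = 0.0916) and Cxcr2 (1.36 against 1.38, limma adjusted p = 0.0675) lost their WT-labelled calls. With number alone as a block, KO-1-hetero against WT-young called 1 member, Cxcl2. With library weights, 2 members were called in KO-labelled against WT-labelled tumors and 5 in KO-1-hetero against WT-young. Of all 13799 genes, 2355 and 2860 were called there. Leaving out single libraries gave 0 to 1 called in KO-1-hetero against WT-young and against KO-8-hetero.

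Cxcl2 in KO-labelled against WT-labelled tumors reversed to -0.00131 with quantile normalization, -1.24 with library weights, -0.58 without the WT-old libraries and -0.074 with the replicate number as a block, and ran from -0.58 to 0.40 over single libraries left out. Cxcl3 reversed to 0.094 without the Xist-expressing libraries and 0.016 without the Krt5-high tumors, and ran from -0.59 to 0.40.

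With a pseudocount of 0.1 the WT-labelled tumor difference of the Il1b to Il1rn ratio was 2.58 (exact permutation test, adjusted p = 0.0476). Without the Xist-expressing libraries the KO-labelled one was 2.07. Over single libraries left out the differences ran from 2.1 to 2.45 in KO-labelled and 1.71 to 2.42 in WT-labelled tissue against normal, from 0.04 to 0.45 between tumors and from -0.33 to 0.36 between normal tissues. Differences of the S100a8 to S100a9 ratio were near 0 and changed sign. Without the WT-old libraries they were -0.093 (WT-labelled tumor against normal) and 0.012 (between tumors), and without the Xist-expressing libraries -0.14 (KO-labelled tumor against normal) and 0.14 (between normal tissues). Over single libraries left out they ran from -0.16 to 0.082 and -0.12 to 0.15 in KO-labelled and WT-labelled tumor against normal, -0.13 to 0.012 between tumors and -0.19 to 0.14 between normal tissues. The Cxcl5 share differed by 2.75 percentage points in KO-labelled tumor against normal without the Xist-expressing libraries, and over single libraries left out by -6.07 to 0.116, -7.36 to 8.93, -5.17 to 1.04 and -7.24 to 9.05 in the same order. The cause was not tested.

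Counts over all genes moved by more than 1.5 times in several comparisons: to 3670 from 6520 without the Xist-expressing libraries (KO-labelled tumor against normal), to 7142, 2682 and 2233 from 4192 with library weights, without WT-old and with the prefix block (WT-labelled tumor against normal), and to 2355 from 1 with library weights (between tumors). KO-1-hetero against WT-young went from 397 to 2860 with library weights, 211 with the stricter filter, 94 without the Xist-expressing libraries, 225 without the Krt5-high tumors and 230 with the block, and to 15 to 605 over single libraries. KO-8-homo against WT-young went from 63 to 1593 with library weights and to 18 to 78 over single libraries. KO-1-hetero against KO-8-hetero, KO-8-hetero against WT-young and KO-8-homo against KO-8-hetero went from 0, 1 and 7 to at most 160, 242 and 342 over single libraries, and the interaction from 0 to 158 with library weights and 7 without the Xist-expressing libraries. Of 45 correlations between members in tumors under 3 alternatives each, 14 of 135 values lost their call. Depth is known only as relative depth, and low genes such as Cxcr2 and Cxcl3 in normal tissue rest on few fragments.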

Other observations

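Maf was set against the members over the 14 tumors after values had been seen. All 10 Pearson correlations were negative, from -0.67 with Cxcl5 to -0.25 with Il1a. Cxcl5 passed a permutation test (r -0.67, Spearman -0.66, adjusted p = 0.0128 over 30 relations), with r of -0.72 without the 2 tumors farthest from the median of Maf and -0.77 without the 2 Krt5-high tumors. Within the 9 KO-labelled tumors r was -0.62 (Spearman -0.63, exact permutation p = 0.0694). Il1rn passed as well (r -0.59, Spearman -0.53, adjusted p = 0.0377, permutation test), but not without the 2 farthest tumors (r -0.50, unadjusted p = 0.1, permutation test). The WT-old tumor had 7.26 FPKM of Maf and the lowest Cxcl5, and KO-1-hetero tumor 3 had 7.40 FPKM of Maf and the next lowest Cxcl5.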
